A study of Mus musculus with 2 samples.

Results

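The barcodes described here carry RNA of *Slc14a2*, which encodes a urea transporter, or of *Fst*, which encodes follistatin, the secreted antagonist of activins. They were taken from single-cell RNA-Seq of postischemic mouse kidneys. A barcode marks the RNA of 1 droplet, in most cases 1 cell, and a UMI (unique molecular identifier) stands for 1 captured RNA molecule. Members were chosen by measured values. A barcode needed at least 3 UMIs of *Slc14a2* and *Fst* together, *Aqp2* under 20 per 10000 UMIs, fewer than 5 UMIs of *Slc12a1* and *Slc12a3*, fewer than 5 of *Havcr1* and *Krt20*, fewer than 2 of *Wt1* and none of *Ptprc*. Among 14910 barcodes that passed the quality limits, 213 were members, 89 of them from the *Cre-* mouse and 124 from the mouse labelled PHDTiEC.

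Each library came from 1 injured kidney, collected on day 14 after the renal artery had been clamped for 25 minutes on that side, in mice aged 8 to 10 weeks at surgery. The PHDTiEC mouse carried the *Cdh5-CreERT2* transgene, whose promoter drives a tamoxifen-activated recombinase in endothelium, with floxed alleles of *Phd1*, *Phd2* and *Phd3*. Tamoxifen was given after the injury, in 4 doses of 3 mg per mouse. The libraries are named below by these labels. The labels call the control mouse *Cre-* and name no further allele. With 1 mouse per genotype, there is no replicate check of any difference between the libraries, so no p-value or standard error was computed, and every interval below is a 95% interval that covers counting error only.

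The thin limbs of the loop of Henle run through the renal medulla. Their descending part is permeable to water, and in long loops this rests on the channel aquaporin-1, encoded by *Aqp1*. In short loops the end of the descending limb carries the urea transporter UT-A2, a product of *Slc14a2*, and has little aquaporin-1. Other products of *Slc14a2* are urea transporters of the inner medullary collecting duct, for which the study's own list of cell markers uses this gene. Thin-limb cells live in a salt- and urea-rich interstitium and hold few mitochondria compared with the thick ascending limb.

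The members of the libraries had similar depths. Members held a median of 14989 UMIs in the *Cre-* library (range 3246 to 86059) and of 15833 UMIs in the PHDTiEC library (range 2359 to 79120). These medians were above those of all kept barcodes, 9339 and 9525 UMIs. No barcode sequence was shared between the members of the libraries, while 17 were shared among all kept barcodes. Levels are given as summed UMIs of a gene per 1000000 UMIs (CPM), the *Cre-* value first. *Egln1* (PHD2) was at 50.1 and 53.6 CPM, *Egln2* (PHD1) at 32.6 and 48.2, and *Egln3* (PHD3) at 5.01 and 4.24. In the descending thin limb-like members defined below, *Egln3* gave 9 and 1 UMIs, a log2 ratio of -3.49 with an interval from -8.94 to -0.64. In barcodes with endothelial genes, *Egln1* was at 68.7 and 177 CPM and *Egln3* at 23.9 and 133, higher in the library that carries the deleted genotype's label. These counts come from 3′ ends, and where a 3′ end lies outside the floxed part they check nothing about the deletion.

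The sum of *Slc14a2* and *Fst* UMIs was the value that chose the members, and most barcodes lay far from its limit. At 2 UMIs, just outside, there were 20 barcodes in the *Cre-* library and 15 in the PHDTiEC library. At 3 UMIs, just inside, there were 14 and 16, and 61 and 89 barcodes had 7 or more. The other limits removed 51 of 140 barcodes in the *Cre-* library and 72 of 196 in the PHDTiEC library, mostly through *Havcr1* and *Krt20*, genes of injured proximal tubule, and through *Ptprc*, the pan-leukocyte gene. The *Havcr1* and *Krt20* limit alone removed 17 and 28 barcodes, and the *Ptprc* limit alone removed 16 and 27. No barcode that passed the *Slc14a2* and *Fst* minimum failed the *Aqp2* limit. Members made up 1.26% of the kept *Cre-* barcodes (1.01 to 1.54, Clopper-Pearson) and 1.58% of the kept PHDTiEC barcodes (1.32 to 1.89). The ratio of these shares was 1.26, with an interval from 0.963 to 1.65.

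*Slc14a2* alone was seen in 42 *Cre-* and 46 PHDTiEC members, *Fst* alone in 27 and 43, and both in 20 and 35. Where *Slc14a2* was seen, the median was 11.5 UMIs in the *Cre-* library, with a highest value of 288, and 8 UMIs in the PHDTiEC library, with a highest value of 445. Where *Fst* was seen, the medians were 8 and 7 UMIs and the highest values 341 and 95. The background was low. Among barcodes with *Ptprc*, at median depths of 7665 and 8027 UMIs, *Slc14a2* was seen in 1.41% and 1.21% and *Fst* in 1.16% and 1.77%. The plot of the selecting genes shows the members on either zero line and, in between, those with both genes.

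**Figure D1:**
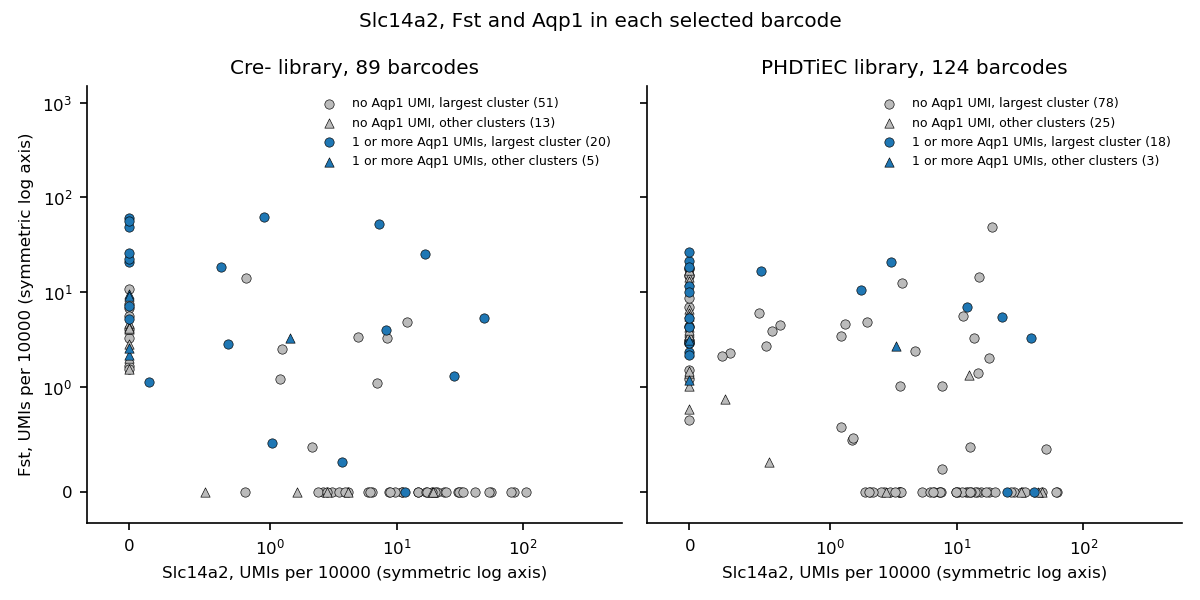
Each point is 1 member, placed by its *Slc14a2* (x axis) and *Fst* (y axis) UMIs per 10000 UMIs on symmetric log axes, with the *Cre-* library on the left and the PHDTiEC library on the right. Blue marks members with an *Aqp1* UMI, and they sit almost all above the zero line of *Fst* (24 of 25 in the *Cre-* library and 19 of 21 in the PHDTiEC library).

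The name thin limb was checked with a list of 10 descending thin limb genes, and it held in part. *Bst1*, which encodes the ectoenzyme CD157, was seen in 79.8% of *Cre-* and 82.3% of PHDTiEC members, at 306 (282 to 332) and 338 (316 to 361) CPM. Other kept barcodes held 22.4 and 20.6 CPM of *Bst1*, and barcodes with *Slc12a1*, the salt transporter of the thick ascending limb, held 2.14 and 2.57. *Slc4a11*, which encodes a membrane transporter of the bicarbonate transporter family, was at 80.7 and 91.0 CPM against 5.30 and 4.92 in the other barcodes. *Cryab*, the small heat shock protein αB-crystallin that is abundant in the renal medulla, was at 1450 CPM in each library and was seen in 92.1% and 92.7% of members. These 3 genes were thus high in the members of both libraries.

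Other genes of the list were seen in members to differing degrees. *Jag1*, a Notch ligand, was seen in 80.9% and 74.2% of members. *Corin*, a serine protease, was seen in 7.87% and 4.03%. *Sptssb* and *Unc5d* gave 0 or 1 UMI in each library. With 9 genes counted, the list's median log2 ratio of members over other kept barcodes was 3.11 in the *Cre-* library and 2.50 in the PHDTiEC library, beside 0.22 and 0.14 for the median of all 6236 genes compared. In each library 7 of the 9 were at least 2-fold higher in members, beside 8.19% and 6.88% of all genes. At least 2-fold lower were 1 and 0 of the 9, beside 2.55% and 3.08%. Since the clusters and members rest on the same RNA, these ratios describe the members and test nothing.

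*Aqp1* itself was absent from most members. It was seen in 25 of 89 *Cre-* members (28.1%) and in 21 of 124 PHDTiEC members (16.9%), fewer than the 44.9% and 42.1% of barcodes selected on the proximal tubule gene *Slc34a1*. In the *Cre-* members *Aqp1* summed to 615 UMIs, of which 317 came from 1 barcode, and in the PHDTiEC members to 213 UMIs, of which 59 came from 1 barcode. As a marker of all members *Aqp1* thus failed.

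Markers of neighbouring segments were mixed. The 8 ascending thin limb genes summed to 1006 and 1091 CPM in members, against 800 and 853 in the other kept barcodes and 1411 and 1568 in the *Slc12a1* barcodes. In each library 2 of them were at least 2-fold higher in members than in the other kept barcodes, and 5 at least 2-fold lower. Of all 6236 genes compared, 8.19% and 6.88% were at least 2-fold higher and 2.55% and 3.08% at least 2-fold lower. *Krt19*, a keratin gene of that list, was seen in 54 and 70 members, at 247 and 328 CPM. Of the ascending thin limb list, *Bsnd* (5 and 0 UMIs), which encodes the chloride channel subunit barttin, and the transcription factor *Prox1* (2 and 1 UMIs) were at or near 0, while the tight junction genes *Cldn3* and *Cldn4* were seen in 79.8% and 80.9% of *Cre-* members and both in 82.3% of PHDTiEC members. *Cldn4* was also at 782 and 1046 CPM in barcodes with at least 3 *Aqp2* UMIs, above the 386 and 420 of the members. Of the collecting duct genes, the water channel genes *Aqp3* and *Aqp4* were seen in 5 and 1 members of each library, and the vasopressin receptor gene *Avpr2* in 2 and 1. Others were seen more often. The transcription factor gene *Tfcp2l1*, also at 342 and 443 CPM in the *Slc12a1* barcodes, was seen in 41 and 59 members, at 89.7 and 54.0 CPM against 901 and 745 in the *Aqp2* barcodes. *Fxyd4*, a regulator of the sodium pump, was seen in 18 and 23 members, *Hsd11b2*, which inactivates glucocorticoids, in 15 and 20, and *Gata3*, a zinc finger gene, in 8 and 15. Without *Aqp2*, the 10 listed genes summed to 336 and 123 CPM in members, to 67.4 and 77.4 in the largest cluster's members and to 5839 and 6380 in the *Aqp2* barcodes. *Slc14a1*, the urea transporter gene of descending vasa recta endothelium, gave 2 and 3 UMIs.

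The members fell into several clusters when all kept barcodes were clustered. The largest cluster held 167 of the 213 (71 *Cre-* and 96 PHDTiEC), and its leading genes began with *Slc14a2*, *Fst*, *Clca3b*, *Anxa13* and *Slc4a11*. These 167 are called descending thin limb-like below, from *Bst1* and *Slc4a11* of the list. The list's 10 genes summed to 2918 and 2788 CPM in them, and to 992 and 1890 in the *Aqp2* barcodes. In the *Aqp2* barcodes *Bst1* (0.48 and 0.71) and *Slc4a11* (1.43 and 1.42) were near 0, so other genes of the list held most of that sum. The cluster also held 376 barcodes that were not members, 194 and 182, with *Bst1* in 61.9% and 61.5% of them at median depths of 15031 and 16346 UMIs. All limits together thus took 30.8% of that cluster. Of its barcodes that were not members, 29 and 30 met the *Slc14a2* and *Fst* minimum and were removed by the other limits.

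A smaller group of members had markers of another epithelium. A cluster led by *Krt14*, *Krt15*, *Upk3a* and *Krt5* held 15 members, 4 *Cre-* and 11 PHDTiEC. *Krt15*, a basal keratin, was seen in 4 of the 4 and in 10 of the 11, and the uroplakin gene *Upk1b* in 4 and in 10. In these 15 members *Slc14a2* summed to 2 UMIs, *Bst1* to 1 UMI and *Aqp1* to 0, while *Fst* summed to 23 and 123 UMIs. They are called urothelium-like, from *Krt15*, *Krt5* and *Upk1b*; *Upk3a* was seen in 1 and 2 of them. The 31 remaining members, 14 and 17, lay in clusters led by other genes, 11 of them in the cluster of *Havcr1* and *Krt20* and 6 in a cluster led by *Col3a1*. Fibroblast genes reached 34692 CPM in 1 *Cre-* member, and 7 intercalated cell genes summed to 138 CPM over the *Cre-* members and to 13.1 over the PHDTiEC members. In the descending thin limb-like members these 7 genes summed to 10.4 and 10.9. Results between the libraries are therefore given with the descending thin limb-like members alone as well.

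Beyond the list, 25 genes led the members by the smaller of the ratios in the libraries, and all were higher in members than in the *Slc12a1* barcodes and the *Aqp2* barcodes of both libraries. The first was *Anxa13*, which encodes an epithelial annexin (chromosome 15, 58341471 to 58389244, GRCm38). It was at 58.1 and 54.0 CPM in members and at 2.27 and 1.27 in the other kept barcodes. It was seen in 43.8% and 41.1% of members.

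Developmental transcription factors formed a part of these genes. *Irx5* was at 82.2 and 65.2 CPM, against 5.23 and 5.38 in the other barcodes, and *Irx3* at 170 and 193, against 19.3 and 20.4. Both are Iroquois homeobox genes, which pattern the nephron. *Tshz2*, a zinc finger gene, was at 367 and 399 CPM and was seen in 86.5% and 87.9% of members. *Foxc1*, a forkhead gene, was at 179 and 149.

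Secreted and matrix genes formed another part. *Bmp3*, a BMP family ligand, was at 110 and 120 CPM, and *Wnt7b*, a Wnt ligand, at 59.1 and 68.3. *Cntf*, a neurotrophic cytokine, was at 86.2 and 77.5. *Plau*, the urokinase plasminogen activator, was at 319 and 284 and was seen in 77.5% and 76.6% of members. *Lamb3* (37.1 and 51.7) and *Nid2* (31.6 and 30.5) encode basement membrane proteins. *Lamb3* was at 25.9 in the descending thin limb-like *Cre-* members and at 266 in the 4 urothelium-like ones.

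The transporter genes among the leading 25 were *Slc34a2*, a sodium-phosphate cotransporter (185 and 135 CPM), *Slc39a8*, a zinc and manganese importer (81.2 and 66.0), and *Slc4a11*. The interferon-induced genes *Ifit3* (222 and 239) and its neighbouring near-identical copy *Ifit3b* (115 and 128) also led, and their counts are uncertain because reads shared by the copies cannot be assigned. *Cdkn2a*, the locus of the cell-cycle inhibitors p16 and p19ARF, was at 43.6 and 51.3 CPM, against 4.73 and 4.36 in the other barcodes, and was seen in 28.1% and 26.6% of members. These genes also marked the rest of the largest cluster. Between the members in that cluster and its other barcodes, 23 of the 25 were higher in members of both libraries, 6 of them at least 2-fold. The exceptions were *Cdkn2a*, at 48.6 and 60.8 CPM in members there and at 60.9 and 51.8 in the other barcodes, and *Lamb3*, at 25.9 and 41.5 against 33.7 and 42.1. *Wnt7b* was at 69.4 and 80.5 against 62.8 and 62.4. The plot of the leading genes shows the members apart from the other barcodes at each of the 23 drawn.

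**Figure D2:**
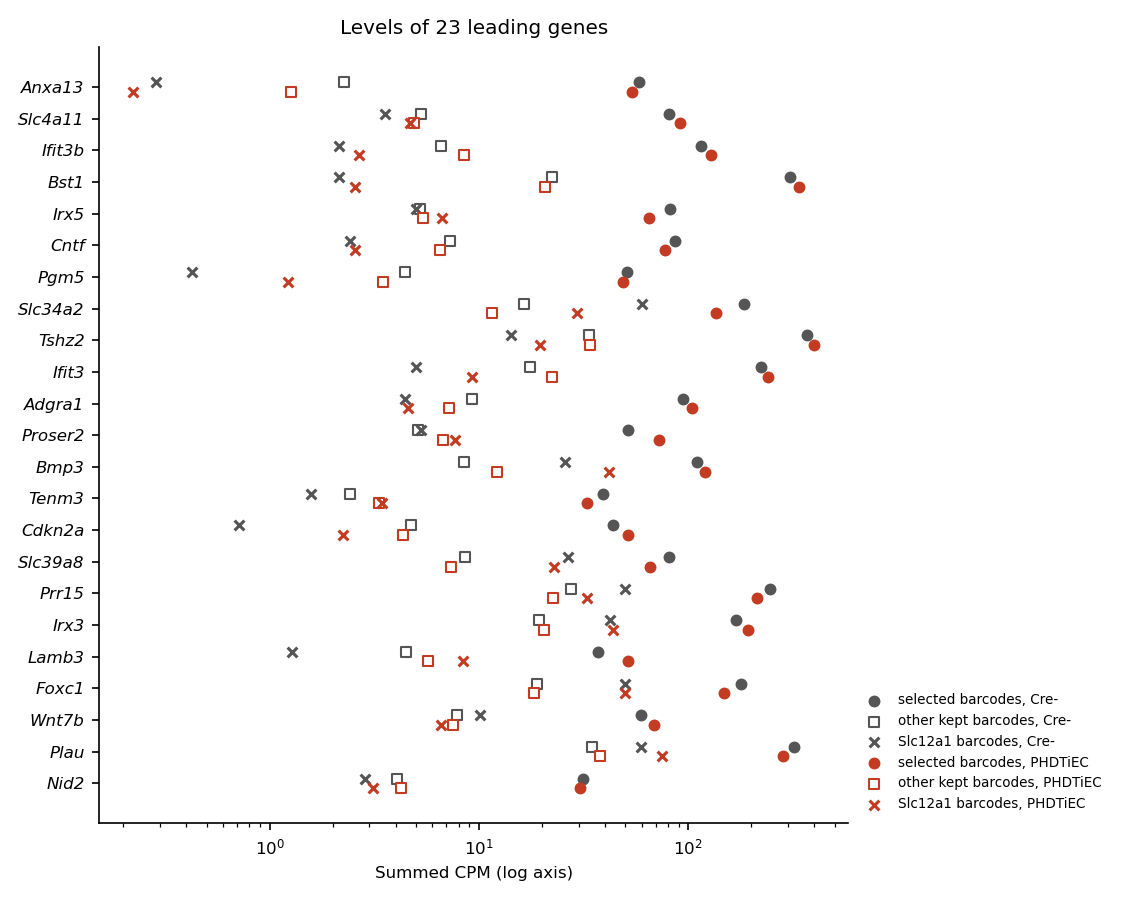
Summed CPM (log axis) of 23 of the 25 leading genes in members (filled circles), in all other kept barcodes (open squares) and in barcodes with at least 5 *Slc12a1* UMIs (crosses), grey for the *Cre-* and red for the PHDTiEC library. Each filled circle lies to the right of the square and the cross of its library; *Bst1* is at 306 and 338 in members and at 22.4 and 20.6 in the others.

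The osmolyte genes were present without standing out. Of 10 genes of the list, 1 in the *Cre-* library and 2 in the PHDTiEC library were at least 2-fold higher in members than in the other kept barcodes. Of all 6236 genes compared, 8.19% and 6.88% were at least 2-fold higher. The list's median log2 ratio was 0.41 and 0.25, beside 0.22 and 0.14 for all genes. *Akr1b3*, aldose reductase, which makes sorbitol, was at 162 and 115 CPM against 98.9 and 90.8. *Slc5a3*, the myo-inositol transporter, was at 54.1 and 54.8 CPM, below the 327 and 322 of the *Slc12a1* barcodes. *Nfat5*, the tonicity-responsive transcription factor, was at 248 and 203.

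Follistatin's ligands and receptors were measured in the same members. The activin subunit genes were nearly silent: *Inhba* gave 4 and 21 UMIs, *Inhbb* 0 and 5. The activin receptor genes *Acvr2a* and *Acvr2b* were at 17.5 and 17.0 CPM in the *Cre-* library and at 16.2 and 15.8 in the PHDTiEC library. *Smad7*, an inhibitor of the pathway, was at 98.2 and 98.4, and *Fstl1*, a follistatin-like gene, at 118 and 94.9.

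Within the descending thin limb-like members, those with an *Fst* UMI (35 *Cre-* and 54 PHDTiEC) were set beside those with *Slc14a2* only (36 and 42). This split uses the selecting genes and was chosen after the values had been seen. *Aqp1* was seen in 19 of 35 members with *Fst* (54.3%, interval 36.6 to 71.2) and in 1 of 36 with *Slc14a2* only (2.78%, 0.0703 to 14.5) in the *Cre-* library. In the PHDTiEC library it was seen in 16 of 54 (29.6%, 18 to 43.6) and in 2 of 42 (4.76%, 0.582 to 16.2). The members with *Fst* were deeper, with medians of 15408 and 19584 UMIs against 11371 and 10086. After each barcode was thinned to 2000 UMIs, *Aqp1* was seen in 28.6% against 2.78% in the *Cre-* library and in 13.0% against 2.38% in the PHDTiEC library. By level, *Aqp1* was at 698 against 15.4 CPM in the *Cre-* library, where 1 barcode held 54.7% of the UMIs of members with *Fst*, and at 108 against 17.9 in the PHDTiEC library, where 1 barcode held 45.4%. Without that barcode the log2 ratio fell from 5.50 to 4.47 (3.61 to 5.49) and from 2.59 to 1.78 (0.91 to 2.76).

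*Umod* had the reverse pattern. *Umod* encodes uromodulin, the main protein of the thick ascending limb. It was at 506 CPM in the *Cre-* members with *Slc14a2* only and at 76.0 in those with *Fst*, a log2 ratio of -2.74 (-3.15 to -2.35). In the PHDTiEC library the levels were 149 and 23.3, a log2 ratio of -2.68 (-3.33 to -2.06). *Umod* was also at 1083 and 711 CPM in barcodes under 100 UMIs, which hold free RNA, and its part in this result was not tested. After thinning, *Umod* was seen in 19.4% and 19.0% of members with *Slc14a2* only and in 11.4% and 9.26% of those with *Fst*. Among the unthinned members with *Slc14a2* only, the top barcode held 32.7% of the *Umod* UMIs in the *Cre-* library. In the PHDTiEC library it held 38.0%. The *Umod* ratios between these members without the top barcodes were not computed.

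Of 5114 genes with at least 100 UMIs in these members, 45 were at least 2-fold higher with *Fst* in both libraries (0.88%) and 12 were at least 2-fold lower (0.235%). Leading genes such as *Bst1* did not separate the members, with log2 ratios of 0.43 and 0.06, nor did *Cryab* (-0.13 and 0.12) or *Jag1* (0.02 and 0.10). *Slc4a11* was higher with *Fst*, by 1.25 (0.70 to 1.82) and 0.88 (0.42 to 1.35) on the log2 scale.

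The genes highest with *Fst*, among those not carried by 1 barcode, began with *Lgals1*, which encodes galectin-1, at 392 against 88.4 CPM in the *Cre-* library and 307 against 56.5 in the PHDTiEC library. *Cd44*, the hyaluronan receptor, was at 72.4 against 16.8 and at 102 against 27.6. *Tnfrsf12a*, the receptor of TWEAK, was at 162 against 58.9 and at 205 against 63.4. *Agt*, angiotensinogen, was at 194 against 58.9 and at 142 against 46.9. *Sult2b1*, *Ddit4*, *Pmaip1*, *Gxylt2* and *Noct* were also among the 10 highest.

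With *Slc14a2* only, the highest were *Oit1*, at 111 against 28.9 CPM in the *Cre-* library and 127 against 40.0 in the PHDTiEC library, and *Apobec3*, a cytidine deaminase gene (63.1 against 19.3 and 73.1 against 27.5). *Muc1*, an apical mucin, was at 135 against 31.4 and at 120 against 51.6. *Erbb4*, a neuregulin receptor, was at 79.9 against 28.9 and at 57.9 against 26.7. *Rasd1* was at 255 against 124 and at 236 against 45.8. *Mta3*, *Klf11*, *Ptpn14*, *Hoxd9* and *Kif13a* completed the 10. Both libraries had the 10 genes of each side in the same direction because the rule that named them asked for it.

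**Figure D3:**
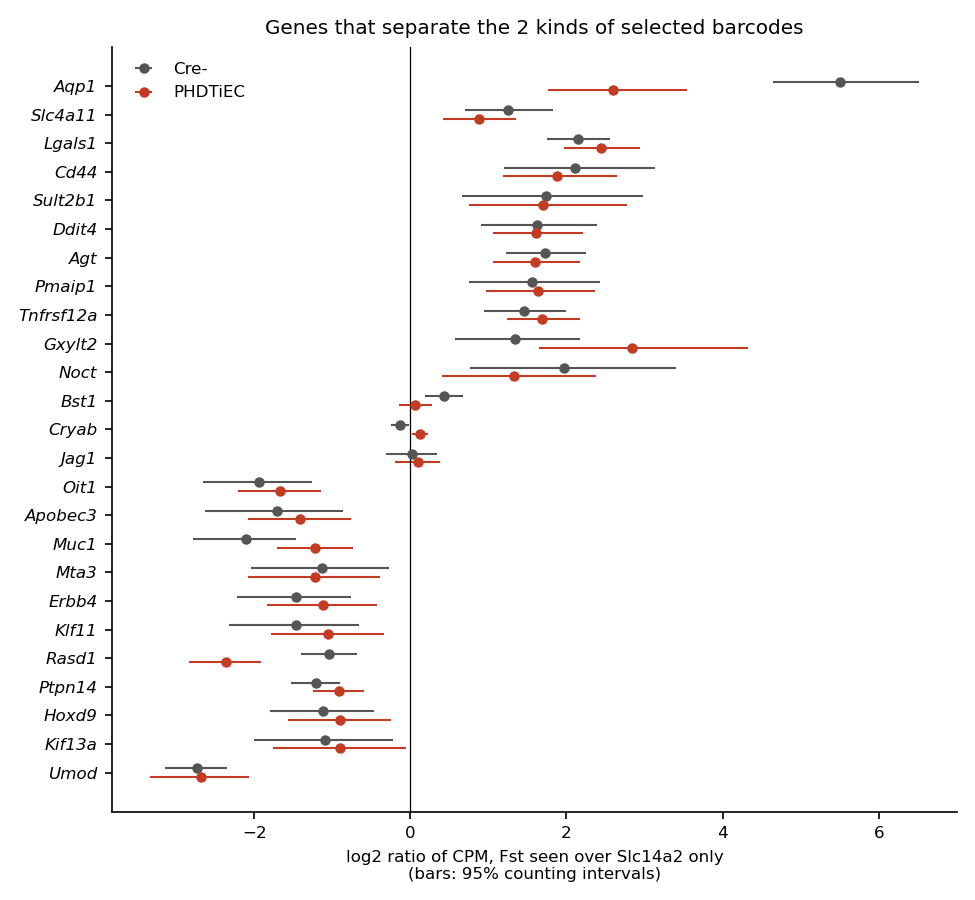
Log2 ratio of CPM between descending thin limb-like members with *Fst* seen and those with *Slc14a2* only, per gene, grey for the *Cre-* and red for the PHDTiEC library, with 95% counting intervals. *Aqp1* (5.50 and 2.59, or 4.47 and 1.78 without its highest barcode) and *Umod* (-2.74 and -2.68, highest barcodes kept) are at opposite ends. *Bst1*, *Cryab* and *Jag1* lie near 0.

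The libraries were then compared over the members. Of 6236 genes with at least 100 UMIs, 27 were at least 2-fold higher in the PHDTiEC library (0.433%) and 31 at least 2-fold lower (0.497%), and the median log2 ratio was -0.03. Single barcodes carried many of these: for 12 of the 27 and 22 of the 31, a lone barcode supplied over 20% of the UMIs on the higher side. *Apod* (0 and 175 UMIs) came from 1 PHDTiEC member, *Ren1* (14 and 172) and *Ccl20* (10 and 121) drew 83.1% and 96.7% of their PHDTiEC UMIs from a single barcode, and *Klk1* (676 and 55) drew 98.4% of its *Cre-* UMIs from 1. In the descending thin limb-like members alone, 13 of the 27 and 16 of the 31 were still past 2-fold in the same direction.

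Among genes not carried by 1 barcode, *Cd14* had one of the better supported differences. It encodes the co-receptor for bacterial lipopolysaccharide and is a gene of monocytes that epithelia can also express. *Cre-* members held 231 UMIs, with a median of 1 and a highest value of 24 per barcode, and PHDTiEC members 810, with a median of 4 and a highest value of 52. *Cd14* was seen in 70.8% and 85.5% of members, so the libraries overlapped. The log2 ratio was 1.43 (1.22 to 1.65), and 1.30 in the descending thin limb-like members. *Cd14* was at 344 and 366 CPM in the free RNA and at 594 and 631 in barcodes with *Ptprc*, and the part of either in the difference was not tested.

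*Ankrd1*, which encodes a stress-induced ankyrin repeat protein, had 426 and 1459 UMIs, and the highest barcodes held 68 and 156. Its level was 214 and 563 CPM, with a log2 ratio of 1.40 (1.24 to 1.56), and 1.49 in the descending thin limb-like members. By kind, it was at 335 and 974 in members with *Fst*, and at 122 and 153 in members with *Slc14a2* only, where the interval of the log2 ratio ran from -0.09 to 0.75. The difference between the kinds was not tested.

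*Edn1*, which encodes the vasoconstrictor peptide endothelin-1, had 124 and 353 UMIs, seen in 47.2% and 53.2% of members. Its log2 ratio was 1.13 (0.83 to 1.44), and 1.37 (1.03 to 1.73) in the descending thin limb-like members. *Nrg1*, the neuregulin ligand of the *Erbb4* receptor family, had 36 and 101 UMIs, and *Dusp6*, a feedback phosphatase of ERK signalling, 32 and 87 UMIs. *Tmem37* (17.0 and 36.3 CPM over all members), *Anxa8* (16.0 and 40.9) and the urea-cycle gene *Ass1* (17.0 and 46.7) kept a log2 ratio above 1 in the descending thin limb-like members. The intervals there were 0.65 to 2.09 for *Tmem37* (23 and 73 UMIs), 0.07 to 2.49 for *Anxa8* (9 and 26) and 0.17 to 2.02 for *Ass1* (15 and 39). For *Ass1*, 1 barcode held 40% of those *Cre-* UMIs. *Foxq1*, a forkhead gene (14.5 and 56.3 CPM over all members), and *P2rx4*, a purinergic channel gene (14.0 and 30.1), had log2 ratios of 0.68 and 0.71 in the descending thin limb-like members, and their intervals included 0.

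The lower genes were led by *Fras1*, a basement membrane gene, at 41.6 CPM in *Cre-* and 16.2 in PHDTiEC members. *Ppargc1a*, the coactivator PGC-1α of mitochondrial biogenesis, was at 66.2 and 30.5, a log2 ratio of -1.12 (-1.54 to -0.71), and -1.02 in the descending thin limb-like members. *Hist1h2bc* and *Hist1h1e*, both histone genes, had log2 ratios of -1.14 and -1.20. *Cldn19*, a claudin of the thick ascending limb, was at 64.2 and 30.1. *Cyfip2* (150 and 72.5), *Arhgap32* (33.1 and 15.8), *Pcolce* (44.6 and 21.6) and *Cbarp* (32.6 and 16.6) were lower too. *Tnc*, the matrix gene tenascin-C, had a log2 ratio of -1.21 over all members and -0.22 in the descending thin limb-like ones, where the interval included 0.

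**Figure D4:**
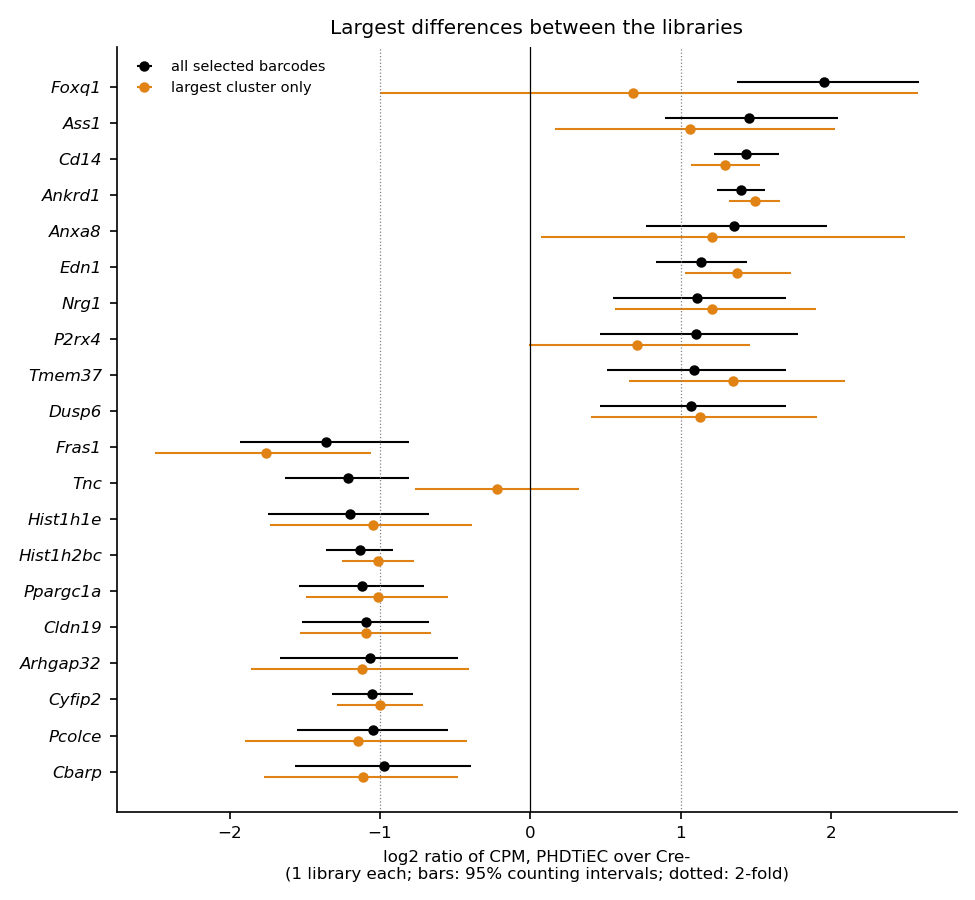
Log2 ratio of CPM, PHDTiEC over *Cre-*, for the 10 highest and 10 lowest genes not carried by 1 barcode, in all members (black) and in the descending thin limb-like members (orange), with 95% counting intervals from 1 library per genotype. *Cd14* (1.43) and *Ankrd1* (1.40) have short intervals past the dotted 2-fold line, and *Foxq1* and *Tnc* move most between the member sets.

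*Aqp1* and *Umod* were lower in the PHDTiEC members. *Aqp1* was at 308 (284 to 334) and 82.2 (71.5 to 94) CPM, a log2 ratio of -1.91 (-2.14 to -1.68). Without the highest barcode of each library the levels were 154 and 60.5, a log2 ratio of -1.35. In members with *Fst* of the descending thin limb-like group *Aqp1* was at 698 and 108, and at 343 and 61.5 without the highest barcode. *Umod* was at 233 and 65.6, a log2 ratio of -1.83, and it was lower in the free RNA of the PHDTiEC library as well. The selecting genes, given as description, were at 1021 and 782 CPM for *Slc14a2* and at 519 and 352 for *Fst*.

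*Lcn2*, which encodes the tubular injury protein NGAL, was at 1001 and 2072 CPM over all members, a log2 ratio of 1.05 (0.97 to 1.12). *Lcn2* was also at 889 and 829 CPM in the free RNA and at 1034 and 954 in barcodes with *Ptprc*. The part of either in the difference was not tested. In the descending thin limb-like members it was at 1150 and 1674, with a log2 ratio of 0.54, and in the urothelium-like members at 1153 and 3634. *Lcn2* was the only gene of 19 in the tubular injury list past 2-fold in all members. In the descending thin limb-like members *Sox9* was past 2-fold higher instead (86 and 225 UMIs, log2 ratio 1.07, 0.70 to 1.44). *Mmp7* was past 2-fold lower there (24 and 9 UMIs, -1.74), with 62.5% of its *Cre-* UMIs from 1 barcode. Over all members the list's median log2 ratio was 0.12, with 16 genes higher and 3 lower, beside -0.06 for the median of 12150 genes with at least 10 UMIs. Of those 12150 genes, 5226 were higher and 6924 lower, with 2.86% at least 2-fold higher and 4.43% at least 2-fold lower. *Spp1*, osteopontin, was at 19698 and 21246 CPM and *Clu*, clusterin, had a log2 ratio of 0.29.

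The TNF and NF-κB list had a median of 0.22 over 17 genes, with 14 higher and 3 lower, and 2 past 2-fold higher (*Lif*, with 10 and 44 UMIs, and *Tnfaip2*, at 0.31 in the descending thin limb-like members) and 1 past 2-fold lower (*Ccl2*). *Nfkbia*, the inhibitor IκBα, was at 480 and 684 CPM, a log2 ratio of 0.51 (0.40 to 0.63), and *Cxcl2*, a neutrophil chemokine, at 164 and 280. *Ccl2*, a monocyte chemokine, had a log2 ratio of -1.36 over all members, where 61.6% of the 359 *Cre-* UMIs came from 1 barcode, and of 2.84 in the descending thin limb-like members, so its direction turned with the member set. Among members with at least 3 *Slc14a2* UMIs the list's median was -0.16, and among those with at least 3 *Fst* UMIs it was 0.39.

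HIF target genes, which are induced when prolyl hydroxylases are inactive, had a median log2 ratio of -0.20 over 22 genes, with 8 higher and 14 lower, none past 2-fold higher and 2 past 2-fold lower. The 2 were *Car12* (27 and 2 UMIs) and *Ndufa4l2* (10 and 2 UMIs), with 55.6% and 50% of the *Cre-* UMIs from 1 barcode. In the descending thin limb-like members *Car12* gave 5 and 1 UMIs and *Ndufa4l2* 0 and 0. Of all 12150 genes with at least 10 UMIs, 5226 were higher and 6924 lower. In the descending thin limb-like members the median of the HIF list was -0.06. *Vegfa*, the endothelial growth factor, was at 20.5 and 14.3 CPM, and *Slc2a1*, the glucose transporter GLUT1, at 59.6 and 52.1, with intervals of the log2 ratio from -1.21 to 0.15 and from -0.56 to 0.17. *Adm*, adrenomedullin, had a log2 ratio of 0.99 over all members and -0.32 in the descending thin limb-like ones. Glycolysis genes had a median of -0.21 over 16 genes, 2 higher and 14 lower, with none past 2-fold. *Hk2*, hexokinase 2, was the highest over all members, at 145 and 208 CPM. In the descending thin limb-like members *Ldhb*, a lactate dehydrogenase gene, was the highest, at 331 and 604 CPM. Its log2 ratio there was 0.87 (0.71 to 1.02), beside 0.57 for *Hk2*.

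The mitochondrially encoded genes were all lower in the PHDTiEC members, with a median log2 ratio of -0.58 over 13 genes. This went with a library-wide value, since the median mitochondrial share was 4.25% and 3.14% in members and 4.18% and 3.05% in all kept barcodes. Its part in the ratio was not tested.

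Of the other lists, all but the urea, water and salt transport list had medians between -0.08 and 0.13. Medians were 0.02 for the osmolyte list over 9 genes and 0.09 for the claudins over 9 genes, of which *Cldn10* (-1.84) and *Cldn19* were past 2-fold lower. The activin and follistatin list had -0.08 over 12 genes, with *Inhba* past 2-fold higher on 4 and 21 UMIs. The interferon list had 0.08 over 12 genes, in which *Rsad2* was past 2-fold higher and the chemokine gene *Cxcl10* was at 152 and 36.7 CPM. Immediate early genes, which are also induced by dissociation, had 0.13 over 14 genes. The urea, water and salt transport list had -1.62 over 12 genes in all members and -0.18 over 7 genes in the descending thin limb-like members, where both the members and the genes counted differed.

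**Figure D5:**
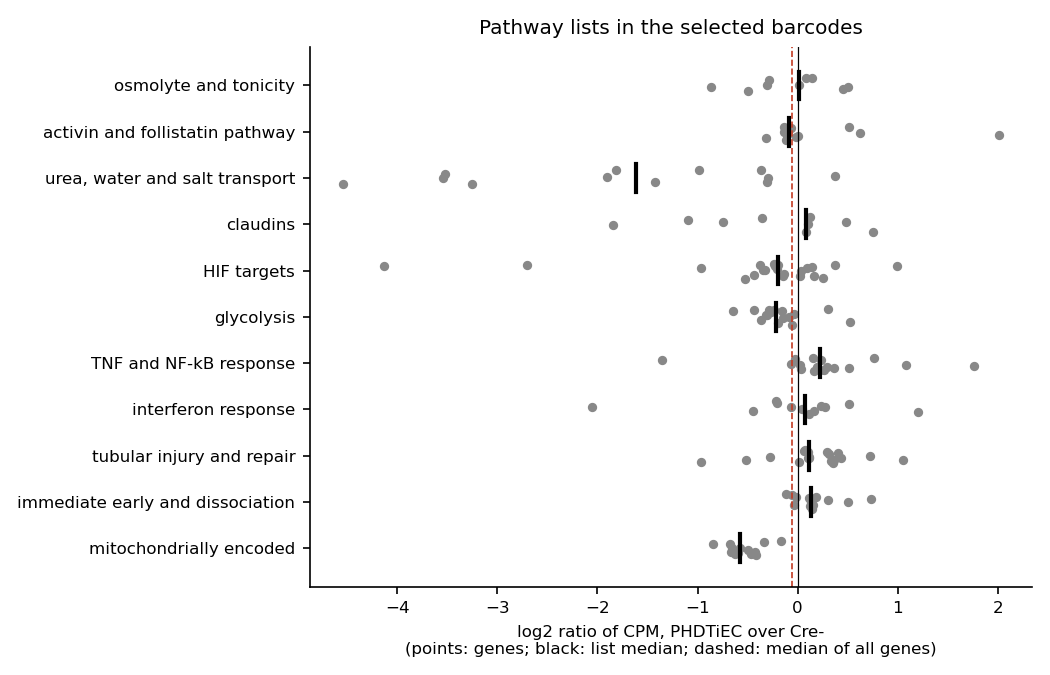
Log2 ratio of CPM, PHDTiEC over *Cre-*, for the genes of 11 pathway lists (grey points, genes with at least 10 UMIs in members; a gene at 0 in 1 library is drawn at its bound against 3 counts), with the list median in black and the median of all genes dashed in red. The mitochondrially encoded genes lie together below 0 (median -0.58), and the osmolyte genes scatter around 0. The 2 HIF targets far to the left of the others rest on few UMIs, *Car12* on 27 and 2 and *Ndufa4l2* on 10 and 2.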

How the data were processed

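Single-cell suspensions were loaded on the 10x Genomics Chromium 3′ v3.1 kit, and the authors aligned reads to mm10 with Cell Ranger (version 4 in the matrix headers). The deposited UMI counts cover every barcode of the kit's list, unfiltered and not normalized, and total 136004367 (*Cre-*) and 146758812 (PHDTiEC). Barcodes were kept with 2000 to 100000 UMIs, at least 200 genes, at most 50% mitochondrial UMIs and a log10 genes to log10 UMIs ratio of at least 0.8. Members, gene lists and named genes were chosen with earlier results of these data known. Named genes were the 25 leading genes, seen in at least 25% of members of each library, the 10 highest and 10 lowest between the libraries with no barcode over 20% of a gene's UMIs on the higher side, the selecting genes, *Aqp1*, *Egln1*, *Egln2*, *Egln3* and the list genes. Mitochondrial, ribosomal protein, haemoglobin and sex-linked marker genes were left out of the ranked sets. Others, such as *Apod*, were named after their values were seen.

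UMIs were summed per gene over members and divided by the total (CPM). Levels had exact Poisson intervals; shares, and the division of a gene's counts between libraries, had Clopper-Pearson intervals; the ratio of shares had a log-normal interval. A count of 0 was replaced by 3 per library for a bound. Clusters used scanpy 1.11.5 (2000 variable genes, 20 principal components, Leiden resolution 0.8). Scrublet marked 0 *Cre-* barcodes and 1.75% of PHDTiEC barcodes, of which 1 was a member; the caller thus did not work in the *Cre-* library and no doublets were removed. The fixed collecting duct gate left 28 barcodes, so at least 3 *Aqp2* UMIs were used instead, a choice made after seeing the data. The ratio script was tested on simulated counts.
The split by *Fst*, and leaving out the barcode with the most *Aqp1* there, were also chosen after seeing the data. A few genes, and the promoter sequences, are not reported here.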

Additional observations from a re-analysis of the deposited data

How the results depend on the processing

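Of 11 other member sets, 10 left the ratio of shares within its interval, and members with *Aqp1* gave 0.761. The numbers of genes past 2-fold, 27 higher and 31 lower, moved most. The number of genes compared moved too, from 6236 in the main set (0.43% higher and 0.50% lower). With *Slc14a2* alone at 3 UMIs, 9 of 4364 genes were higher (0.21%), and with *Aqp1* seen 13 of 1794 (0.72%). Leaving out members holding 3 UMIs of other cell types left 36 and 46 members. There 9 and 18 of 1316 genes were past 2-fold (0.68% and 1.37%). The largest cluster gave 16 and 12 of 5217 (0.31% and 0.23%). Thinning gave 6 and 4 of 586 (1.02% and 0.68%), and a minimum of 30 UMIs gave 89 and 166 of 9955 (0.89% and 1.67%). Without the urothelium-like members, an alternative chosen after seeing the data, 16 of 5903 genes were higher (0.27%). Without the top barcode of each gene, 14 of 5895 were lower (0.24%). The split of higher and lower calls moved by over 10 percentage points with *Slc14a2* alone (9 and 31), *Fst* alone (38 and 22), without other cell types, in the largest cluster (16 and 12), without urothelium-like members (16 and 31), after thinning, without the top barcode (31 and 14) and at 30 UMIs. TMM gave 32 and 25.

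The HIF and osmolyte medians ran from -0.34 to -0.01 and from -0.20 to 0.09 over the 18 alternatives. A median counted as moved past the median half-width of its genes' intervals, 0.67 and 0.37 on the log2 scale here. These limits exceed the main medians (-0.20 and 0.02) in size, so staying within them says little. The TNF and NF-κB median was -0.33 with both genes seen and -0.16 with *Slc14a2* alone. In the other 16 it stayed within its limit of 0.22. The descending thin limb median of members over other barcodes was positive throughout. In the *Cre-* library it was 3.33 at 5 UMIs of the selecting genes, 4.02 with both, 2.76 with *Slc14a2*, 3.81 with *Fst*, 4.06 with *Aqp1*, 3.44 without other cell types and 3.42 in the largest cluster. In the PHDTiEC library it was 2.83 with both, 2.98 with *Slc14a2*, 2.13 with *Fst*, 3.94 with *Aqp1* and 2.72 in the largest cluster. The cause of these moves was not tested. *Aqp1* is itself a gene of the list and was counted in the median, so the values with *Aqp1* are not independent of that selection. Removing doublets gave no usable value. No paired analysis was possible because each genotype had 1 library.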
